A study of Mus musculus with 12 samples.

Results

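The genes described here are 38 genes of mitosis and cytokinesis, chosen by name: motor proteins of the spindle, kinetochore and checkpoint proteins, the chromosomal passenger complex, mitotic cyclins and their kinase, spindle assembly factors, cytokinesis proteins and 2 chromosome proteins of dividing cells. The array annotation gave a probe set for 37 of them, among 19494 genes in all, and each of the 37 had 1 probe set. Ccnb1, cyclin B1, was not analysed here. All 37 lay above the limit on low signal and were among the 14620 genes tested.

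RNA came from 2 populations of bone marrow cells sorted by flow cytometry from untreated mice in steady state. The tested mice were Nfat5 fl/fl Vav-Cre (KO; mice 2, 11 and 70), in which Cre removes Nfat5, and the control mice were Nfat5 +/+ Vav-Cre (WT; mice 3, 12 and 64), so all 6 mice carried the Cre transgene. Vav-Cre is active across blood cells from the stem cell stage on, and the deletion is therefore shared by both populations and by their descendants. HSC, haematopoietic stem cells, were the CD48- CD150+ cells within LSK (lineage-negative cells with Sca-1 and Kit), and MPP, multipotent progenitors, were the CD48+ CD150- cells within LSK. One array was made per mouse and population, which gives 4 groups of 3 arrays. The labels used here give no age or sex of the mice.

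Cells enter mitosis when cyclin B binds and activates Cdk1, attach their chromosomes to spindle microtubules through kinetochores, and wait at the spindle checkpoint until all are attached. The anaphase-promoting complex with Cdc20 then marks cyclin B for destruction, sister chromatids part, and motor proteins of the central spindle direct the cleavage that separates the daughter cells. Most of these transcripts accumulate in G2 and M phase and are nearly absent from resting cells. HSC in an unperturbed adult marrow are mostly quiescent and MPP divide more often, so these genes are commonly read as a measure of how many cells of a population are dividing. Nfat5 encodes a transcription factor best known for the response to high salt.

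Genes of this kind are known to share promoter elements, the CCAAT box bound by NF-Y and the cell cycle genes homology region, often written TTTGAA, bound by the DREAM and MuvB complexes. The following 6 stretches show where these letters lie in promoters of members whose levels are described below. Each runs 5′ to 3′ on the gene's strand from 120 bases before to 30 bases after the annotated start, from RefSeq on GRCm38.p6. Capitals mark CCAAT and TTTGAA on either strand, so that ATTGG and TTCAAA are the same motifs read from the other strand. The regions are chr9:61946770-61946919 (minus strand) for Kif23, chrX:100625945-100626094 (plus strand) for Kif4, chr4:117178743-117178892 (minus strand) for Kif2c, chr9:70421525-70421674 (minus strand) for Ccnb2, chr10:69352883-69353032 (minus strand) for Cdk1 and chr11:99024160-99024309 (minus strand) for Top2a.
Kif23: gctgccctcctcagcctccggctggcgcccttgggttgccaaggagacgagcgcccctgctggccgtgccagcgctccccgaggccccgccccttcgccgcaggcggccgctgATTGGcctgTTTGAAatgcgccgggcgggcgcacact
Kif4: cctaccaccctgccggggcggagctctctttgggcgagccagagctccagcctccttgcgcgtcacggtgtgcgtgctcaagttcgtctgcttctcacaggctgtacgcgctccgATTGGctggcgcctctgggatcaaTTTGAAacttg
Kif2c: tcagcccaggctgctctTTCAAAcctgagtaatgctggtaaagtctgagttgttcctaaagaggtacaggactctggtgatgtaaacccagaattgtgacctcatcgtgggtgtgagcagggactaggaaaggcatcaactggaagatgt
Ccnb2: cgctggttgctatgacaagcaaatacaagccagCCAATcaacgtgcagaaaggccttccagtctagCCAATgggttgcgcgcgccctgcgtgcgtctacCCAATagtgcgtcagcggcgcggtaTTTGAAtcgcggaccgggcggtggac
Cdk1: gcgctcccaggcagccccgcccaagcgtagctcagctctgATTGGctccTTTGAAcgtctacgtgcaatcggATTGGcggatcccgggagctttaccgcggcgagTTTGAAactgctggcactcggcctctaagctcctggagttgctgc
Top2a: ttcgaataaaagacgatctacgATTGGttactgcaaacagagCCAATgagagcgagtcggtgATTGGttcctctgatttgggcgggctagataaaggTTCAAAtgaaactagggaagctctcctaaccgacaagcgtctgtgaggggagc
Kif23, Ccnb2, Cdk1, Top2a and Kif4 hold both motifs in the stretch shown, and Kif2c holds TTTGAA alone.

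The reference table had windows of 250 bases before to 50 bases after the start for 33 of the 38 genes, 35 windows in all, and 32851 windows over all genes. CCAAT was in 26 of the 35 windows (74.3%) against 37.4% of all windows. TTTGAA was in 28 of 35 (80.0%) against 17.9%, and within 50 bases of the start in 25 of 35 (71.4%) against 4.94%. Both motifs together were in 23 of 35 windows (65.7%) against 6.95%. Ect2 and Prc1 had 2 overlapping windows each, so the same motifs were counted in both windows. By gene, CCAAT was in 24 of 33, TTTGAA in 26 of 33 and both in 21 of 33. The variant TTTAAA was in 10 of 35 (28.6%) against 13.2%. TGGAAA, the core of the site that NFAT5 binds, was in 4 of 35 (11.4%) against 21.4% of all windows. Both strands were searched, none of these motifs contains another, and no test was run on the shares. Birc5, Mad2l1, Nuf2 and Nusap1 had neither CCAAT nor TTTGAA in the window, and Kif20a, Ccna2, Aurkb, Incenp and Tpx2 had no window in the table.

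The arrays were deposited as log2 intensities with medians of 5.81 to 5.91, and a difference of 1 on this scale is a 2-fold difference of signal. Values on single arrays are given in the order of mice 2, 11 and 70 for KO and 3, 12 and 64 for WT. Nfat5 itself read 7.85, 7.34 and 7.89 in KO HSC against 8.55, 8.27 and 8.99 in WT HSC, and 6.99, 7.45 and 7.04 in KO MPP against 7.82, 8.28 and 7.98 in WT MPP. It was below every WT array of the population on every KO array. The sort genes went with the sort: Slamf1, which encodes CD150, was higher in HSC than in MPP by 2.24 in WT mice (limma, adjusted p = 0.00814) and Cd48 was lower by 2.82 (log2 difference -2.82, adjusted p = 0.000706). Of stem cell genes, 3 of 11 were called higher in WT HSC, where 0.746% of all genes tested were, and 5 of 7 genes typical of MPP were called lower, where 1.32% of all genes were. One array stood apart for the mitosis genes: over the 37 genes, the deviations from the group mean had an SD of 0.85 in the HSC of KO mouse 2, against 0.182 to 0.673 on the other 11 arrays. Over all genes tested that SD was 0.438 on this array and 0.276 to 0.378 on the others. Values without this array are given below where leaving it out turned a sign or moved a difference between HSC and MPP by over 1.5 times, and by count otherwise.

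The first comparison sets HSC against MPP within a genotype, and asks how far the mitotic programme separates the populations. In KO mice 36 of 37 genes had a lower mean in HSC, with a median of -0.88 against 0.05 over all genes. By the limma test with Benjamini-Hochberg adjustment over all 14620 genes none passed the threshold of 0.05, and the smallest adjusted p was 0.0627 for Kif11, while 0.739% of all genes were called lower in KO HSC. At an unadjusted p under 0.05 there were 26 of 37, all lower, where 12.4% of all genes passed in either direction. All KO HSC arrays lay below all KO MPP arrays for 21 of 37, against 7.33% of all genes. Without the HSC array of KO mouse 2 the median was -0.82, again none passed, Kif2c turned its sign, and the differences of 9 more genes moved by over 1.5 times. Of these, Kif14 differed by -0.58, Cenpa by -0.61, Bub1 by -1.32, Bub1b by -0.81, Ube2c by -1.18 and Nusap1 by -1.27. Kif18b (-0.25), Birc5 (-0.21) and Tpx2 (-0.63) were the others.

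In WT mice all 37 genes had a lower mean in HSC, with a median log2 difference of -1.03, while the median over all 14620 genes was 0.03. The same test called 9 of the 37 lower (Kif23, Ccnb2, Top2a, Ect2, Cenpe, Kif4, Incenp, Mki67 and Aurka) and 0 higher, and 28 had an unadjusted p under 0.05, where 14.1% of all genes did. The background is that 193 of the 14620 genes, 1.32%, were called lower in WT HSC. On 31 of the 37 genes every WT HSC array lay below every WT MPP array, against 10.3% of all genes tested. The number called rested on the 3 WT mice, and was 2 without mouse 3, 2 without mouse 12 and 1 without mouse 64. It was 15 without the HSC array of KO mouse 2, which enters this contrast only through the pooled spread. The difference between KO and WT mice in this contrast is the interaction described below, in which no gene passed.

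RNA of a sorted population does not show whether fewer cells were in mitosis or each cell held less of these RNAs, which cannot be told apart here. By animal, the median of HSC minus MPP over the 37 genes was -1.02, -0.74 and -0.81 in KO mice 2, 11 and 70 and -0.93, -1.02 and -1.30 in WT mice 3, 12 and 64. The numbers of genes lower in HSC were 33, 34 and 35 of 37 in the KO mice and 36, 36 and 37 in the WT mice. The same 6 animals had 43.7% to 48.6% of all genes lower in HSC. HSC lay below MPP in all 6 mice for 28 of the 37 genes, against 6.19% of all genes tested, in 5 mice for 7 genes and in 4 mice for 2 genes, Kif2c and Bub1b.

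**Figure D1:**
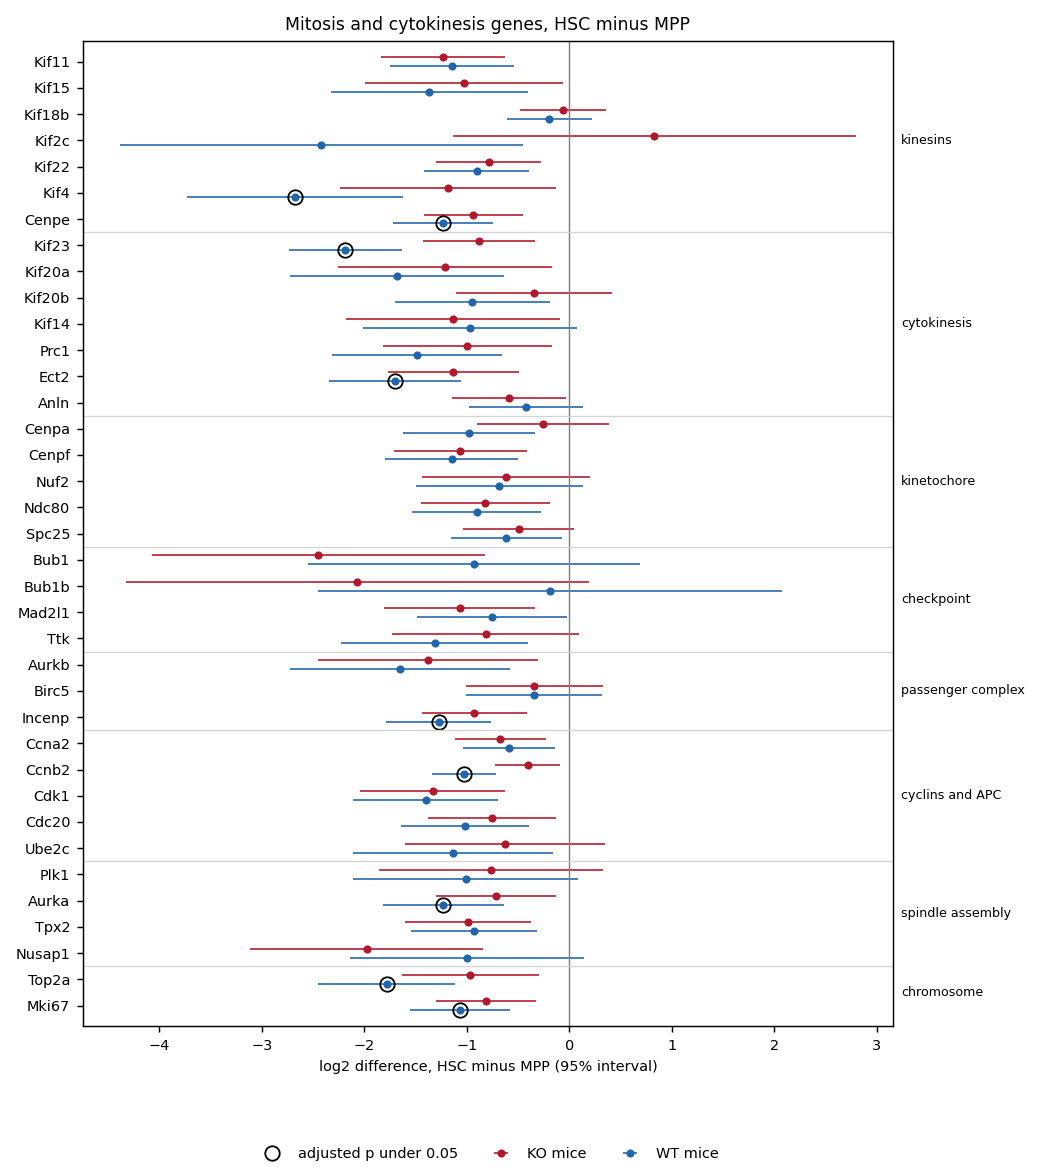
Log2 difference of HSC minus MPP (x axis) for the 37 genes, grouped by role down the page, in KO mice (red, above) and WT mice (blue, below), with the 95% interval of the limma fit over 12 arrays. Rings mark the 9 genes with an adjusted p under 0.05, all in WT mice, and all points but the one for Kif2c in KO mice lie left of 0.

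Cytokinesis genes had the deepest median difference of any role with 3 or more genes in WT mice. All 7 had lower means in KO HSC (median -0.997, 0 called) and in WT HSC (median -1.49, 2 of 7 called lower). Kif23, the motor subunit of centralspindlin, which bundles the central spindle, read 8.68, 7.86 and 8.13 in KO HSC against 9.26, 9.21 and 8.84 in KO MPP, a difference of -0.88 (SE 0.25, adjusted p = 0.141). In WT mice it read 7.40, 6.63 and 7.08 in HSC against 9.18, 9.07 and 9.41 in MPP. The WT HSC arrays were all far below the MPP arrays, with a difference of -2.19 (SE 0.25, adjusted p = 0.00146), which is 4.55-fold lower. The KO groups did not overlap either, but lay closer together. Ect2, the exchange factor that activates RhoA at the cell equator, read 8.04, 8.51 and 8.04 in KO HSC against 9.15, 10.02 and 8.81 in KO MPP (difference -1.13, adjusted p = 0.107). Its WT values were 8.28, 7.74 and 7.75 in HSC against 9.41, 9.73 and 9.72 in MPP, and it was called lower (difference -1.70, SE 0.29, adjusted p = 0.0153). Every HSC array was below every MPP array in both genotypes.

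In the reported fit the other 5 cytokinesis genes did not pass in either genotype. Of these, Prc1 was called lower in WT HSC with the mouse as a block, with only the WT arrays fitted and without mouse 11. Prc1, which crosslinks antiparallel microtubules, differed by -0.997 in KO and -1.49 in WT mice, and Kif20a, a motor that carries passenger proteins to the central spindle, by -1.22 in KO and -1.68 in WT mice. Kif14, which helps to recruit the abscission machinery, differed by -1.13 in KO and -0.97 in WT mice. Kif20b, another motor of late mitosis, differed by -0.35 in KO and -0.95 in WT mice. Anln, the scaffold of the contractile ring, differed by -0.59 in KO and -0.43 in WT mice.

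The 7 kinesins of spindle and chromosome movement had medians of -0.94 in KO HSC, with none called, and -1.23 in WT HSC, with Kif4 and Cenpe called lower. Kif4, the chromokinesin that shapes chromosome arms and the central spindle, read 5.85, 5.83 and 5.90 in KO HSC against 6.22, 7.54 and 7.36 in KO MPP, and the difference of -1.18 had an adjusted p of 0.344. The WT values of Kif4 were 4.08, 6.13 and 5.50 in HSC against 7.84, 8.30 and 7.60 in MPP. The WT difference was -2.68 (SE 0.48, adjusted p = 0.0188), with no overlap, although WT HSC spanned more than 2 log2 units. Cenpe, the motor that carries chromosomes to the spindle equator, read 7.42, 7.67 and 7.63 in KO HSC against 9.03, 8.44 and 8.06 in KO MPP (difference -0.94, adjusted p = 0.0755). Its WT values were 7.65, 7.75 and 7.65 in HSC against 8.74, 8.92 and 9.10 in MPP (difference -1.23, SE 0.22, adjusted p = 0.0186). Both genotypes had separate groups for Cenpe. With the mouse as a block the WT call of Cenpe was lost (adjusted p = 0.0788).

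Kif11, the motor that pushes the spindle poles apart, had the smallest p of the 37 genes in KO mice. It read 7.19, 7.78 and 7.93 in KO HSC against 8.93, 8.82 and 8.85 in KO MPP, and 8.38, 7.93 and 7.20 in WT HSC against 9.02, 8.97 and 8.96 in WT MPP. The MPP arrays were tightly grouped and the HSC arrays spread below them, with differences of -1.23 (SE 0.28, adjusted p = 0.0627) in KO and -1.14 (adjusted p = 0.0671) in WT mice. Kif15, a motor with a role that overlaps that of Kif11, differed by -1.03 in KO and -1.37 in WT mice, and Kif22, a chromokinesin, by -0.79 in KO and -0.90 in WT mice. Kif18b, which shortens astral microtubules, differed by -0.06 in KO and -0.20 in WT mice, with a 95% interval in WT mice of -0.61 to 0.22.

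Kif2c, the microtubule depolymeriser that corrects faulty attachments, depended on one array. In KO mice it read 9.10, 4.78 and 5.41 in HSC against 5.80, 6.35 and 4.64 in MPP, so that the HSC of mouse 2 were higher than every other array of the 12. WT mice gave 5.41, 4.83 and 5.18 in HSC against 7.60, 7.54 and 7.54 in MPP. The KO groups overlapped (difference 0.83, SE 0.89), and the WT groups were well apart (difference -2.42, SE 0.89, adjusted p = 0.245). Without the HSC array of KO mouse 2 the KO difference was -0.51, of the opposite sign. The SE pools the 4 groups, with SDs of 2.34 in KO HSC, 0.87 in KO MPP, 0.29 in WT HSC and 0.04 in WT MPP. Kif2c was called lower in WT HSC without that array, without mouse 2, and in a fit to the WT arrays alone.

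**Figure D2:**
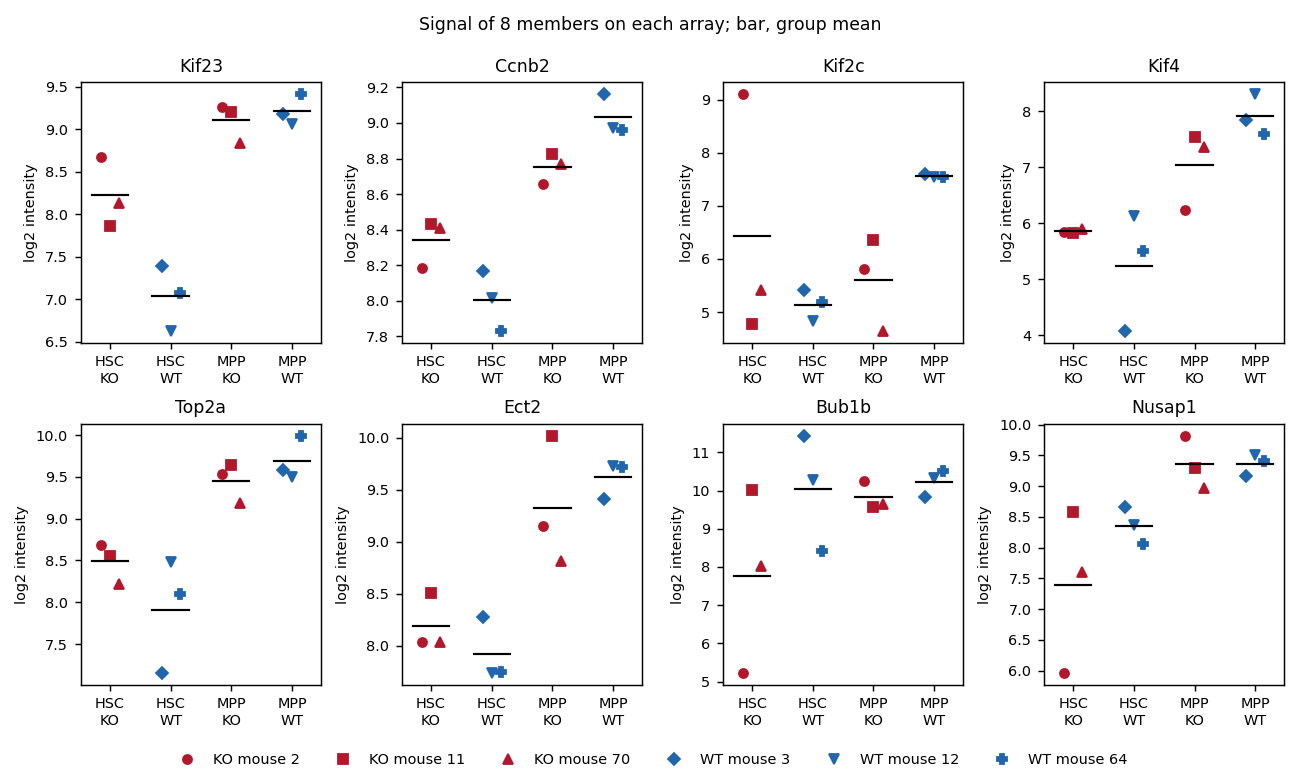
Log2 intensity (y axes, each with its own range) of 8 of the genes on each of the 12 arrays, by group, with 1 symbol per mouse and a bar for the group mean. Kif23 lies lower in HSC than in MPP, most so in WT mice, and the HSC of KO mouse 2 read 9.10 for Kif2c and 5.23 for Bub1b.

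Among the 5 kinetochore genes, all means were lower in HSC and none was called, with medians of -0.62 in KO and -0.91 in WT mice. Cenpf, a large protein of the outer kinetochore, read 6.46, 6.82 and 7.68 in KO HSC against 8.11, 8.02 and 8.02 in KO MPP (difference -1.06, SE 0.29, adjusted p = 0.131). Its WT values were 6.80, 6.23 and 7.10 in HSC against 7.78, 7.96 and 7.85 in MPP (difference -1.15, adjusted p = 0.0859). MPP arrays were close together and HSC arrays were lower and more scattered in both genotypes. Ndc80 and Nuf2, partners in the complex that holds the microtubule end, differed by -0.82 and -0.62 in KO and by -0.91 and -0.68 in WT mice. Spc25 of the same complex differed by -0.49 in KO and -0.62 in WT mice. Cenpa, the centromeric histone, differed by -0.26 in KO and -0.98 in WT mice.

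Among the 4 checkpoint genes, all means were lower in HSC and none was called, and the medians were -1.57 in KO and -0.84 in WT mice. Bub1b, the checkpoint protein BubR1, read 5.23, 10.02 and 8.01 in KO HSC against 10.26, 9.57 and 9.63 in KO MPP. In WT mice it read 11.42, 10.28 and 8.41 in HSC against 9.83, 10.34 and 10.51 in MPP. The HSC arrays ran from the lowest to the highest of the 12 while MPP stayed within 1 log2 unit, and the WT difference was only -0.19 with a 95% interval of -2.45 to 2.07. Bub1, the kinase that recruits checkpoint proteins to kinetochores, read 5.24, 8.82 and 8.46 in KO HSC against 9.77, 9.97 and 10.12 in KO MPP, and 9.57, 9.25 and 8.57 in WT HSC against 9.75, 10.20 and 10.23 in WT MPP. The groups were separate in both genotypes, with differences of -2.45 (adjusted p = 0.166, and -1.32 without the HSC array of KO mouse 2) in KO and -0.93 (adjusted p = 0.625) in WT mice. Mad2l1, the inhibitor of Cdc20, differed by -1.07 in KO and -0.75 in WT mice, and Ttk, the kinase that starts checkpoint signalling, by -0.81 in KO and -1.32 in WT mice.

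In the chromosomal passenger complex, which follows chromosomes and then the central spindle, the medians were -0.93 in KO and -1.27 in WT mice. Incenp, its scaffold, read 7.11, 7.07 and 7.66 in KO HSC against 8.36, 8.03 and 8.24 in KO MPP (difference -0.93, adjusted p = 0.0964). WT arrays read 7.27, 7.13 and 6.49 in HSC against 8.16, 8.15 and 8.40 in MPP, and Incenp was called lower (difference -1.27, SE 0.23, adjusted p = 0.02). The groups did not overlap in either genotype, and the block by mouse ended the WT call (adjusted p = 0.0782). Aurkb, the kinase of the complex, differed by -1.38 in KO and -1.65 in WT mice and was not called. Birc5, survivin, differed little, by -0.34 in KO and -0.35 in WT mice.

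Of the 5 cyclin and anaphase-promoting complex genes all had lower means in HSC, with medians of -0.67 in KO and -1.03 in WT mice. Ccnb2, cyclin B2, had the smallest SE of the 37 genes. It read 8.19, 8.43 and 8.41 in KO HSC against 8.66, 8.82 and 8.77 in KO MPP, without overlap (difference -0.41, SE 0.14, adjusted p = 0.255). In WT mice it read 8.17, 8.02 and 7.83 in HSC against 9.16, 8.97 and 8.96 in MPP, and was called lower (difference -1.03, SE 0.14, adjusted p = 0.00496), which is 2.04-fold. Cdk1, the kinase that cyclin B activates, read 6.94, 8.21 and 7.26 in KO HSC against 9.37, 8.59 and 8.44 in KO MPP, and 7.49, 7.42 and 7.41 in WT HSC against 9.09, 8.77 and 8.66 in WT MPP. It was lower in HSC on every array, but missed the threshold in KO (difference -1.33, adjusted p = 0.083) and in WT mice (difference -1.40, adjusted p = 0.055). Some alternatives called Cdk1 lower in WT HSC, among them a fit to the WT arrays alone, but the mouse as a block did not. Ccna2, cyclin A2, differed by -0.67 in KO and -0.59 in WT mice, Cdc20, the activator of the anaphase-promoting complex, by -0.75 in KO and -1.02 in WT mice, and Ube2c, its ubiquitin-conjugating enzyme, by -0.63 in KO and -1.13 in WT mice.

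The 4 spindle assembly genes had medians of -0.87 in KO and -1.01 in WT mice. Aurka, the centrosomal kinase, read 7.20, 6.29 and 7.24 in KO HSC against 7.65, 7.71 and 7.52 in KO MPP (difference -0.72, adjusted p = 0.297). In WT mice it read 7.06, 6.54 and 6.93 in HSC against 8.46, 7.92 and 7.86 in MPP and was called lower (difference -1.23, SE 0.27, adjusted p = 0.0435), but not with the mouse as a block (adjusted p = 0.0869). The groups were separate in both genotypes. Nusap1, which bundles microtubules near chromosomes, read 5.96, 8.59 and 7.61 in KO HSC against 9.82, 9.30 and 8.98 in KO MPP, a difference of -1.98 (SE 0.52, adjusted p = 0.11) that was largest in mouse 2 and was -1.27 without that mouse's HSC array. In WT mice it read 8.65, 8.37 and 8.05 in HSC against 9.17, 9.50 and 9.41 in MPP (difference -1.001). Tpx2, which activates Aurka on the spindle, differed by -0.99 in KO and -0.93 in WT mice, and Plk1, a kinase of mitotic entry and exit, by -0.76 in KO and -1.01 in WT mice.

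Both chromosome genes were called lower in WT HSC. Top2a, the topoisomerase that untangles sister chromatids, read 8.69, 8.56 and 8.22 in KO HSC against 9.53, 9.64 and 9.18 in KO MPP (difference -0.96, adjusted p = 0.194). WT mice had 7.16, 8.48 and 8.09 in HSC against 9.59, 9.50 and 9.99 in MPP (difference -1.78, SE 0.30, adjusted p = 0.0149). The WT arrays were further apart than the KO arrays. Mki67, the coat protein of mitotic chromosomes and the usual marker of cycling cells, read 8.17, 8.32 and 7.65 in KO HSC against 8.93, 8.85 and 8.82 in KO MPP (difference -0.82, adjusted p = 0.123). Its WT values were 7.58, 8.37 and 7.95 in HSC against 8.95, 8.99 and 9.16 in MPP (difference -1.07, SE 0.22, adjusted p = 0.0371, and 0.0789 with the mouse as a block). Neither gene had overlapping groups in either genotype.

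**Figure D3:**
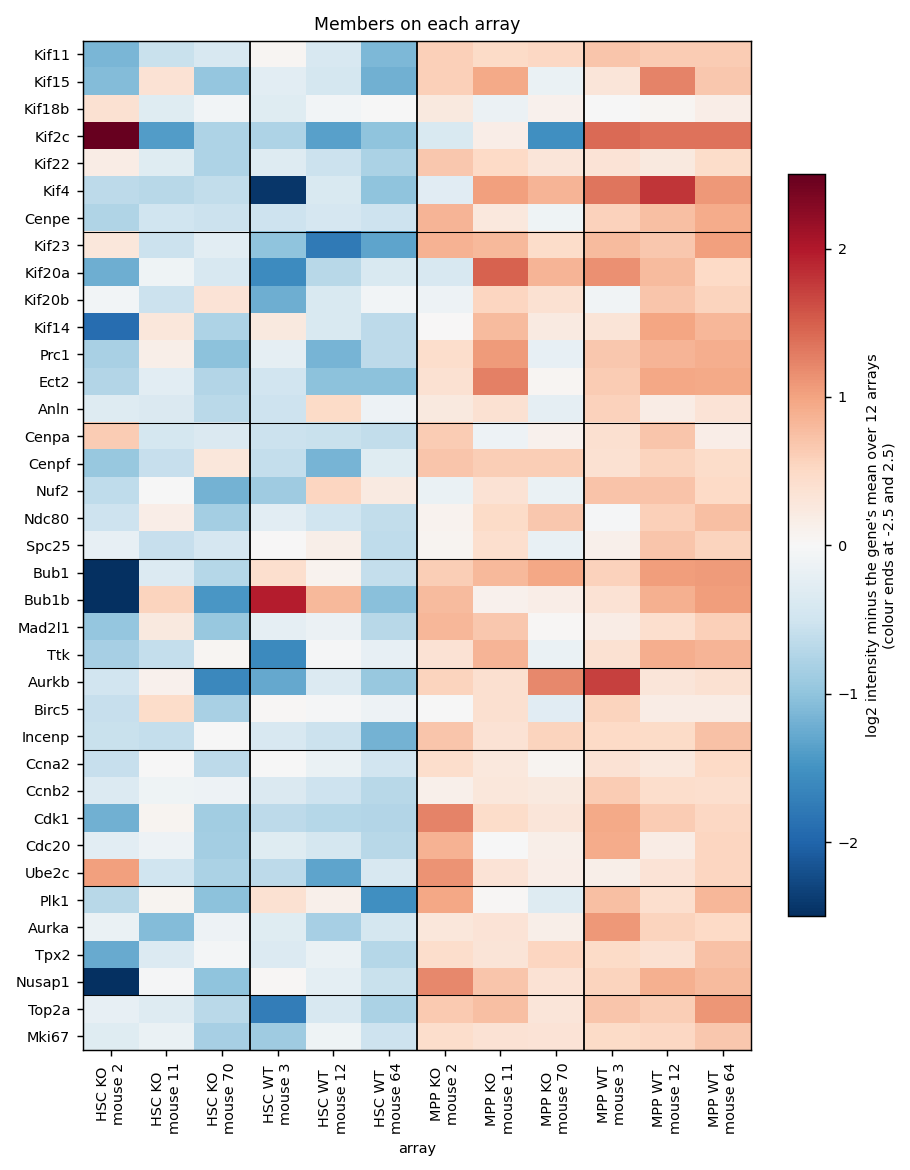
Log2 intensity of each of the 37 genes on each array minus that gene's mean over the 12 arrays (colour, ending at -2.5 and 2.5), with genes in rows by role and arrays in columns by group. The HSC columns are mostly blue and the MPP columns mostly red, and the first column, the HSC of KO mouse 2, holds the strongest colours of both kinds.

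Averaged over the 37 genes, arrays read 7.31, 7.74 and 7.36 in KO HSC, 7.50, 7.57 and 7.32 in WT HSC, 8.43, 8.48 and 8.17 in KO MPP and 8.56, 8.62 and 8.65 in WT MPP. The group means were 7.47 ± 0.23 in KO HSC, 7.47 ± 0.13 in WT HSC, 8.36 ± 0.17 in KO MPP and 8.61 ± 0.05 in WT MPP (SD, n = 3 arrays each). No HSC array reached the lowest MPP array. Replicates scattered more in HSC: the median SD of a member gene was 0.538 in KO HSC, 0.42 in WT HSC, 0.344 in KO MPP and 0.206 in WT MPP, beside 0.27, 0.258, 0.234 and 0.218 over all genes tested in the same groups.

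Related lists also had medians below 0 between the populations. Over all genes tested, 0.739% were called lower in KO HSC and 1.32% in WT HSC, the background for the counts that follow. Of 88 other mitosis genes tested, 5 were called lower in KO HSC and 12 in WT HSC, and none was called higher. Their medians were -0.60 in KO and -0.79 in WT mice. The lowest p in KO mice were those of the condensin subunit Ncapg2 (difference -1.28, adjusted p = 0.00975), Cip2a (-2.04, adjusted p = 0.0159), Racgap1, the partner of Kif23 in centralspindlin (-2.02, adjusted p = 0.0187), and Cep55, which organises abscission (-2.72, adjusted p = 0.0349). In WT mice they were those of Nek2, a centrosomal kinase (-2.73, adjusted p = 0.0094), Dlgap5, a spindle protein (-2.10, adjusted p = 0.0111), Ncapg2 (-1.17, adjusted p = 0.0116) and Ncapg, another condensin subunit (-1.24, adjusted p = 0.0118). Of 44 DNA replication genes, 2 were called lower in KO HSC (Mcm4 and Rpa2; median of the list -0.54) and 3 in WT HSC (Uhrf1, Mcm5 and Pola2; median -0.63), and none higher. Among 19 regulators of these genes, 1 was called lower in KO HSC, Lin54, the DNA-binding subunit of MuvB (difference -1.87, adjusted p = 0.0165). In WT mice 0 regulators were called and 9 had an unadjusted p under 0.05, where 14.1% of all genes did. The repressor E2f8 differed by -1.59 in KO and -1.61 in WT mice and did not pass (adjusted p = 0.0748 and 0.0555).

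Some markers of other cell types also differed between HSC and MPP. Of 8 neutrophil genes tested, 5 had a higher mean in KO HSC than in KO MPP (median 0.32, none called), and 7 in WT HSC than in WT MPP (median 1.50, none called). The mean log2 level was taken over the 9 neutrophil genes on the array, which include Mmp8, below the limit on low signal. It ranged over 5.64 to 7.81 in KO HSC, 5.93 to 8.07 in WT HSC, 5.89 to 6.83 in KO MPP and 4.83 to 7.10 in WT MPP. In KO HSC 1 of 6 B-cell genes, 1 of 3 T and NK cell genes and 1 of 6 dendritic cell genes were called lower, where 0.739% of all genes were, and 0 of the monocyte, erythroid and endothelial genes were called. In WT HSC 2 of 6 B-cell genes, 1 of 3 T and NK cell genes, 1 of 8 monocyte genes, 1 of 6 dendritic cell genes and 1 of 8 erythroid genes were called lower, 1 of 8 erythroid genes was called higher, and 0 of 4 endothelial genes were called, where 1.32% of all genes were called lower and 0.746% higher. The dendritic cell gene called is Flt3 in both genotypes, which is also 1 of the genes typical of MPP counted above. The part of these markers in the differences of the mitosis genes was not tested.

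The second comparison sets KO against WT within HSC, and asks whether loss of Nfat5 moves the mitotic genes of stem cells. The HSC arrays are those of the first comparison, so the values are not independent of it. None of the 37 was called by limma, and of all genes tested 0, that is 0%, were called in either direction. The median difference was 0.06, against 0.02 over all genes, with 23 genes above and 14 below 0, and it was -0.15 without mouse 11. At an unadjusted p under 0.05 there were 4 of 37, where 6.29% of all genes passed. This count rests on a spread pooled over HSC and MPP, and the HSC arrays scattered more. It was 1 in a fit to the HSC arrays alone and 2 with robust variance or with array weights. Leaving out mice in turn gave 2 to 9, the most without mouse 11. The share over all genes was not taken in those fits. All KO HSC arrays lay above all WT HSC arrays for 3 genes, Kif23, Ccnb2 and Cenpa, against 5.15% of all genes, and below them for 0, against 3.72%.

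Kif23 had the smallest p of the 37. KO HSC read 8.68, 7.86 and 8.13, against 7.40, 6.63 and 7.08 in WT HSC, so that the lowest KO array was above the highest WT array (difference 1.19, SE 0.25, unadjusted p = 0.000622, adjusted p = 0.435). Without each mouse in turn the difference stayed between 0.96 and 1.37. Ccnb2 read 8.19, 8.43 and 8.41 in KO HSC against 8.17, 8.02 and 7.83 in WT HSC (difference 0.34, SE 0.14, adjusted p = 0.79), and here the groups were barely separate. Bub1b (5.23, 10.02 and 8.01 in KO HSC against 11.42, 10.28 and 8.41 in WT HSC) and Bub1 (5.24, 8.82 and 8.46 in KO HSC against 9.57, 9.25 and 8.57 in WT HSC) overlapped between genotypes. Their differences of -2.28 (SE 1.02) and -1.62 (SE 0.73), both with an adjusted p of 0.79, were -1.02 and -0.49 without mouse 2, whose HSC array held the lowest value of each. Kif2c differed by 1.29 (SE 0.89), and by -0.05 without the HSC array of mouse 2. Leaving out that array turned the sign of 8 of the 37 differences and moved 19 more by over 1.5 times, with a median of 0.03 and none called.

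Role medians had both signs in HSC. They were 0.13 for the kinesins, 0.27 for cytokinesis, 0.06 for kinetochore, -0.91 for checkpoint, 0.19 for passenger, 0.06 for cyclin and anaphase-promoting complex, -0.17 for spindle assembly and 0.33 for chromosome genes. With 3 mice a group, the intervals were wide for some genes and narrower for others: the 95% interval was -0.41 to 0.57 for Mki67, -0.68 to 0.74 for Cdk1, -0.09 to 1.25 for Top2a and -0.88 to 1.26 for Aurkb. Of the other lists, 0 of 88 other mitosis genes, 0 of 19 regulators and 0 of 44 replication genes were called. At an unadjusted p under 0.05 there were 12, 1 and 3 of them, where 6.29% of all genes passed. The lowest p among them were those of Cep55 (-2.12, adjusted p = 0.551), Knl1, the kinetochore scaffold (-1.55, adjusted p = 0.57), and Dlgap5 (1.30, adjusted p = 0.57). Neutrophil genes had lower means in KO HSC for 7 of 8 (median -0.93, none called). Genes typical of MPP had higher means in KO HSC for 6 of 7 (median 0.31, none called). Of these 7, Cd34 (0.63) and Flt3 (0.85) had an unadjusted p under 0.05, against 6.29% of all genes. Stem cell genes had higher means for 5 of 11 (median -0.01, none called). The part of these markers was not tested.

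**Figure D4:**
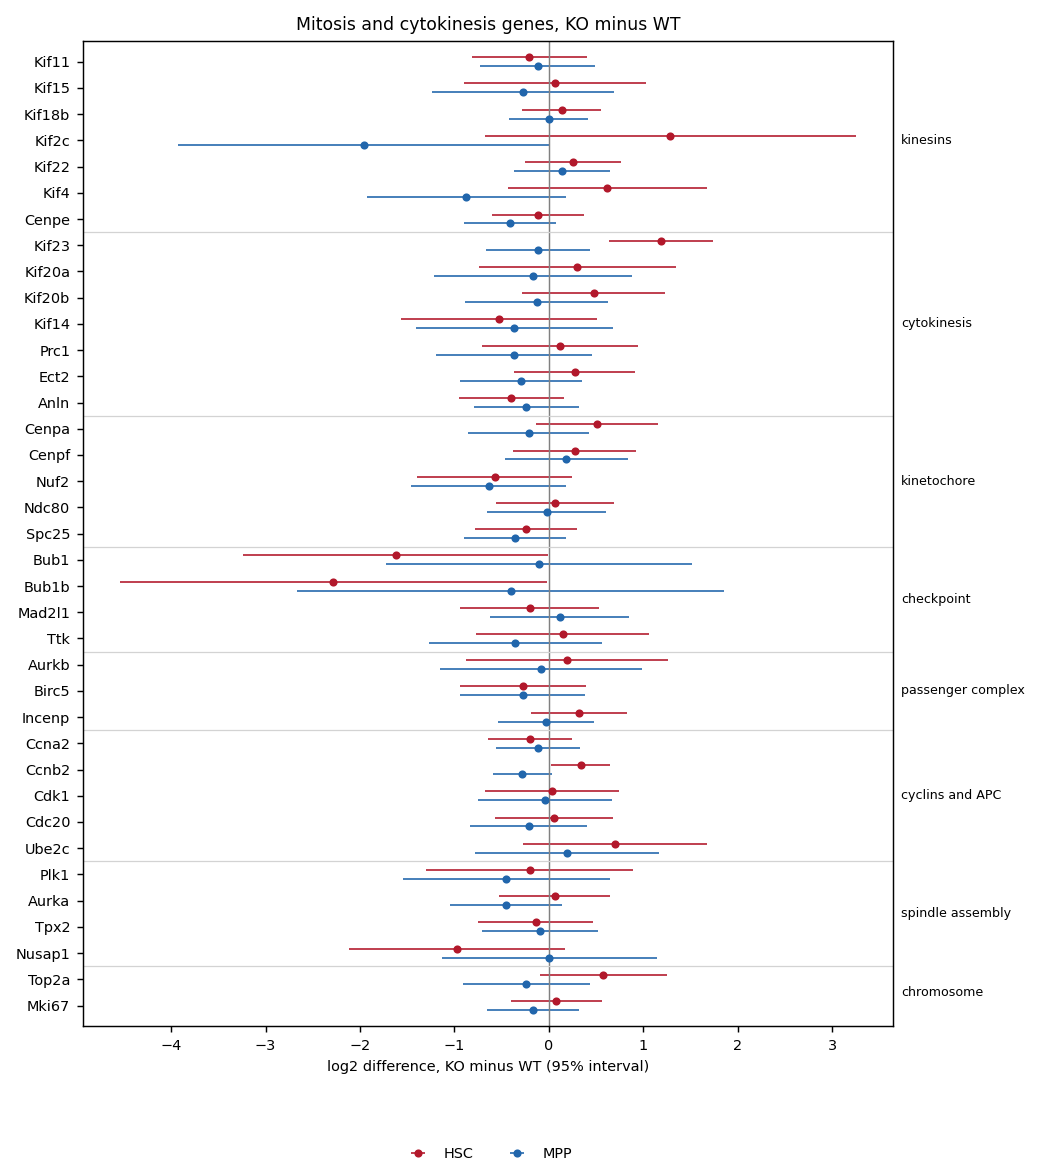
Log2 difference of KO minus WT (x axis) for the 37 genes by role, in HSC (red, above) and MPP (blue, below), with the 95% interval of the limma fit over 12 arrays. No gene passed the adjusted threshold, and 32 of 37 points for MPP lie left of 0. Kif23 in HSC lies at 1.19. Further from 0 lie Bub1b (-2.28), Bub1 (-1.62) and Kif2c (1.29) in HSC and Kif2c (-1.96) in MPP.

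The same comparison in MPP called none of the 37 genes, and 0 of all genes tested (0%). The genes had lower means in KO MPP for 32 of 37, with a median of -0.21 against 0.00 over all genes, of which 49.5% were below 0. Leaving out mice in turn gave a median of -0.26 to -0.12, with -0.12 without mouse 70. The MPP array of mouse 70 was the lowest of the KO group for 21 of the 37 genes. None had an unadjusted p under 0.05, where 3.19% of all genes did. These p values rest on a spread pooled over the 4 groups, and the HSC arrays scattered more than the MPP arrays. In a fit to the MPP arrays alone 2 of the 37 were under 0.05. Leaving out mice in turn gave 0 to 4, the most without mouse 11. The share over all genes was not taken in those fits. All KO MPP arrays lay below all WT MPP arrays for 7 genes, against 4.66% of all genes, and above them for 1, Cenpf, against 4.82%. These 7 were Kif2c, Ccnb2, Aurka, Nuf2, Kif4, Mki67 and Kif11.

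Kif2c had the smallest p in MPP. It read 5.80, 6.35 and 4.64 in KO MPP against 7.60, 7.54 and 7.54 in WT MPP, where the WT arrays were nearly equal and all 3 KO arrays lower (difference -1.96, SE 0.89, unadjusted p = 0.0504, adjusted p = 0.9999). Ccnb2 read 8.66, 8.82 and 8.77 in KO MPP against 9.16, 8.97 and 8.96 in WT MPP (difference -0.28, SE 0.14). Kif4 read 6.22, 7.54 and 7.36 in KO MPP against 7.84, 8.30 and 7.60 in WT MPP (difference -0.87, SE 0.48). Both genes had every KO array below every WT array, and the difference of Kif4 was -0.47 without mouse 2. Cenpe read 9.03, 8.44 and 8.06 in KO MPP against 8.74, 8.92 and 9.10 in WT MPP, with overlap (difference -0.41, SE 0.22), and the difference was -0.67 without mouse 2 and -0.19 without mouse 70. Cytokinesis genes were below 0 for 7 of 7 members, from -0.37 for Prc1 to -0.12 for Kif23, and passenger genes for 3 of 3. The other mitosis genes had a median of -0.13, regulators -0.05 and replication genes -0.08, with 0 called in each. At an unadjusted p under 0.05 there were 7, 0 and 1 genes, where 3.19% of all genes passed. Esco2, a cohesin acetyltransferase (-1.46), and Nek2 (-1.58) had the lowest p of the other mitosis genes, both at an adjusted p of 0.9999. Next came Racgap1 (1.08) and Iqgap3 (0.80), both higher in KO MPP and at the same adjusted p. Stem cell genes had higher means in KO MPP for 10 of 11 (median 0.16) and neutrophil genes for 6 of 8 (median 0.34), none called, and their part was not tested.

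The interaction asks whether the KO against WT difference is unlike in HSC and MPP, or equally whether HSC and MPP are further apart in one genotype. No gene of the 37 and 0% of all genes tested passed, with a smallest adjusted p among the 37 of 0.884. The sign is that of KO against WT in HSC minus that in MPP, so a positive value means that HSC lay less far below MPP in KO mice. There were 28 genes above and 9 below 0, with a median of 0.25 against 0.01 over all genes. Unadjusted p values under 0.05 were found for 4 of 37, against 4.5% of all genes. In 5 genes, Kif23, Ccnb2, Kif2c, Kif4 and Cenpa, HSC minus MPP was higher in every KO mouse than in every WT mouse, against 5.33% of all genes. It was lower in every KO mouse for 0 of the 37, against 628 of the 14620 genes tested.

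By the fit, the interaction was 1.30 for Kif23 (SE 0.35, adjusted p = 0.884), 0.62 for Ccnb2 (SE 0.20, adjusted p = 0.995), 3.25 for Kif2c (SE 1.26, adjusted p = 0.9996) and 1.49 for Kif4 (SE 0.68, adjusted p = 0.9996). Leaving out 1 mouse in turn gave 1.16 to 1.54 for Kif23, 0.57 to 0.65 for Ccnb2, 2.02 to 4.45 for Kif2c, with the lowest without mouse 2, and 0.95 to 1.78 for Kif4, with the lowest without mouse 3. Without only the HSC array of KO mouse 2 the interaction was 1.08 for Kif23, 0.70 for Ccnb2, 1.91 for Kif2c and 1.50 for Kif4. For Kif23 the KO arrays were higher in HSC, by 1.19, and the difference in MPP was -0.12. For Ccnb2 and Kif4 KO means were higher in HSC and lower in MPP. Top2a had an interaction of 0.82 (SE 0.43), and Mki67 of 0.25 (SE 0.31). The checkpoint genes Bub1b and Bub1 had values of the other sign, -1.88 and -1.52, with SEs of 1.45 and 1.04, and of -0.62 and -0.39 without the HSC array of KO mouse 2. Over the 37 genes, leaving out that array turned the sign of 7 interactions and moved 14 more by over 1.5 times, with a median of 0.32 and none called. Across the other lists 0 genes were called, with medians of 0.16 for other mitosis genes, 0.15 for regulators and 0.22 for replication genes. At an unadjusted p under 0.05 there were 8, 1 and 2 of these genes, against 4.5% of all genes.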

How the data were processed

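HSC and MPP RNA from 3 KO and 3 WT mice was amplified from picogram amounts, biotin-labelled and hybridised to 12 arrays, per the labels' protocols. The authors deposited 1 table of log2 intensities by probe set. The submitters' processing notes name RMA, the normalization, and limma. Versions of both were not given in the sources used here. This normalization sets all arrays to one distribution, so a shift of the whole transcriptome would be removed and differences of weak signals are compressed. Detection calls were not used here, and precision is limited by the number of arrays.

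Of 22142 probe sets, 19527 had 1 gene symbol, 0 several and 2615 none. The annotation's gene identifiers were matched to a GRCm38.p6 table for all 19527. The probe set with the highest mean stood for a gene (33 genes had several). The 25% of genes with the lowest mean (4874 genes, below 4.96) were left out. The means of the 4 groups were fitted in limma 3.58.1 (with statmod 1.5.0, under R 4.3.3) with 5 contrasts, two-sided, with Benjamini-Hochberg adjustment over 14620 genes, a threshold of 0.05 and 95% intervals. The fit was tested on simulated data with changes in WT HSC only and, for each gene, the same spread in all groups. That does not test how the fit handles groups of unequal spread.

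The members, lists and tests were chosen with earlier results of these data known, so no p is given over a list. All members are named. Values on every array are given for the members with the 4 lowest p in each KO against WT comparison and the interaction, the 8 lowest in HSC against MPP, and at least 1 member per role; up to 4 genes with the lowest p were named from other lists.

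HSC and MPP arrays pair by animal, since the labels give each sample's mouse. Across genes, the deviations of a mouse's HSC array and MPP array from their group means had correlations of 0.032 to 0.091 in the 6 pairs. One alternative took the mouse as a block. Others were no filter or a 50% filter, the mean of probe sets, a second quantile normalization, centring on the median, trended or robust variance, array weights, only the arrays compared, leaving out each mouse, and leaving out the HSC array of KO mouse 2. Promoter windows were RefSeq sequences of GRCm38.p6.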

Additional observations from a re-analysis of the deposited data

Results flagged for a closer look

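Ccnb2 was singled out because its genotypes lay on opposite sides in the 2 populations. Every KO array was above every WT array in HSC (8.19, 8.43 and 8.41 in KO against 8.17, 8.02 and 7.83 in WT) and below every WT array in MPP (8.66, 8.82 and 8.77 in KO against 9.16, 8.97 and 8.96 in WT). The interaction was 0.618 on the log2 scale and did not pass (limma, adjusted p = 0.995). Such an opposite separation was seen in 61 of the genes tested, 0.417%, and in 1 of the 37 mitosis genes.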

How the results depend on the processing

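None of the 37 genes was called for KO against WT in HSC or in MPP under 17 alternatives, or in the interaction under 16, since it uses all arrays and has no fit with only the arrays compared. In WT mice the number called lower in HSC, 9 in the reported fit, was 15 when KO mouse 2 lost its HSC array, and ran over 1 to 13 when mice were left out in turn, with a median difference of -1.17 to -0.97. Of the 9, Kif23 was called in 17 of 17 alternatives, Ccnb2 in 15, Ect2 and Top2a in 14, Cenpe and Kif4 in 13, Incenp in 12 and Aurka and Mki67 in 8. With the mouse as a replicate block 6 were called, 5 of them among the 9, and the other was Prc1. The calls of Cenpe, Incenp, Mki67 and Aurka were lost, and the block changed no other call of the 9. Over all genes, the WT comparison had 302 calls, but 180 with the block and 71 to 96 without a WT mouse; the KO comparison had 184, but 113 with the block, 79 with only the arrays compared, 104 when mouse 2 lost its HSC array and 59 to 87 without a KO mouse. In KO mice 0 to 1 gene was called when mice were left out, 1 without mouse 11 (Cdk1, adjusted p = 0.0424) and 1 without mouse 64 (Kif11, adjusted p = 0.0414). The sign of Kif2c reversed for KO against WT in HSC (-0.048 without mouse 2 and -0.048 without its HSC array; -0.048 to 2.11 over left-out mice) and for HSC against MPP in KO mice (-0.403 without mouse 2 and -0.506 without its HSC array; -0.403 to 2.03 over left-out mice). That array holds the value 9.10. The median of KO against WT in HSC ran over -0.15 to 0.14 when mice were left out. With 3 arrays a group and 1 probe set per gene, differences within their 95% intervals could not be told from 0. The intervals are not adjusted for the number of genes, so differences beyond them could also go uncalled. Kif23 for KO against WT in HSC had an interval of 0.64 to 1.74 and was not called (limma, adjusted p = 0.435).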
